A study of Mus musculus with 6 samples.

Results

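The 8 genes described here encode alpha subunits of voltage-gated sodium channels: Scn1a, Scn2a, Scn3a, Scn7a, Scn8a, Scn9a, Scn10a and Scn11a. They were taken by gene symbol from a table of 45703 genes, and all 8 were found. Each of the 6 samples was a primary cell culture from the dorsal root ganglia (DRG) of wild-type C57BL/6 mice, adult at 4 to 6 weeks, profiled by RNA sequencing after 7 days in vitro. Ganglia had been digested with Liberase TH and Liberase TM, and the cells grew on poly-L-lysine in DMEM/F12 with serum, EGF and FGF, with the RNA of 2 dishes in each sample. All samples therefore shared 1 genotype, strain, age and culture time, and no untreated ganglion or second condition was compared. The labels call the samples biological replicates without saying whether each came from separate animals. The p-values below therefore apply to these cultures and may not extend to other animals.

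An alpha subunit forms the pore of the channel that opens on depolarisation and carries the rising phase of the action potential. Sensory neurons hold channels blocked by tetrodotoxin, such as the products of Scn9a, Scn8a and Scn1a, and channels that resist it, the products of Scn10a and Scn11a, which are typical of nociceptors, the neurons that sense damage. Scn2a and Scn3a are best known from the brain, Scn3a mainly before birth. Scn7a encodes Nax, a sodium-sensing relative that is not gated by voltage in the usual way and is known from glia as well as from neurons.

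The libraries held 20070639 to 22968642 counts, with scaling factors (TMM, edgeR's trimmed mean of M-values) from 0.976 to 1.02. The 8 genes together took 0.0764% ± 0.0250 of the counts (SD, n = 6). The labelled tissue was checked against markers. All 12 neuron markers reached 1 CPM (a gene's count scaled by its library's total) in every culture, with summed levels from 1120 to 2445 CPM. So did 6 of 6 glial lineage markers, at 4162 to 6033 CPM, and 6 of 7 fibroblast markers, at 3339 to 13977 CPM. Macrophage markers summed to 12.8 to 133 CPM, mural markers to 266 to 1459 CPM and endothelial markers to 6.44 to 102 CPM. None of the 6 skeletal muscle markers reached 1 CPM in every culture, and Ckm and Myod1 stayed at or under 3 counts. Replicate 5 had the highest fibroblast, macrophage, mural and endothelial sums and the lowest neuron and glial lineage sums, and replicate 1 the lowest fibroblast, macrophage, mural and endothelial sums. In such mixed cultures, fewer cells of a type and less RNA per cell cannot be told apart.

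Transcripts of all 8 genes were counted in every culture, over a wide range of levels. Of the 8 genes, 7 reached 1 CPM in all 6 cultures, against 30.4% of all genes in the table. The exception was Scn1a, which was at 0.92 CPM in replicate 5 and above 1 CPM in the other 5 cultures. Per kilobase of combined exon length, the mean level fell in the order Scn7a, Scn10a, Scn9a, Scn11a, Scn8a, Scn2a, Scn1a and Scn3a, from 76.1 ± 28.4 to 0.0849 ± 0.0142 CPM per kb (SD, n = 6). Between those ends, Scn10a was at 10.8 ± 4.59, Scn9a at 6.25 ± 1.58, Scn11a at 5.63 ± 2.27, Scn8a at 1.27 ± 0.259, Scn2a at 0.457 ± 0.118 and Scn1a at 0.195 ± 0.0757 CPM per kb. Differences were taken within each culture on the log2(CPM per kb + 0.1) scale, and for all 28 pairs of genes an exact permutation test, two-sided, flipped the signs of the 6 differences in all 64 ways. In 26 pairs the same gene was higher in 6 of 6 cultures, with an exact permutation p of 0.0312, the smallest this design allows, and an adjusted p of 0.0337 (Benjamini-Hochberg over the 28 pairs). The remaining pairs were neighbours in the order. Scn10a exceeded Scn9a by 0.68 ± 0.76 (SD) in 5 of 6 cultures, exact permutation p = 0.0938, adjusted p = 0.0972. Scn9a exceeded Scn11a by 0.23 ± 0.76 in 3 of 6, exact permutation p = 0.5, adjusted p = 0.5. The order of Scn10a, Scn9a and Scn11a was thus not fixed by these data, except that Scn10a lay above Scn11a in every culture.

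**Figure D1:**
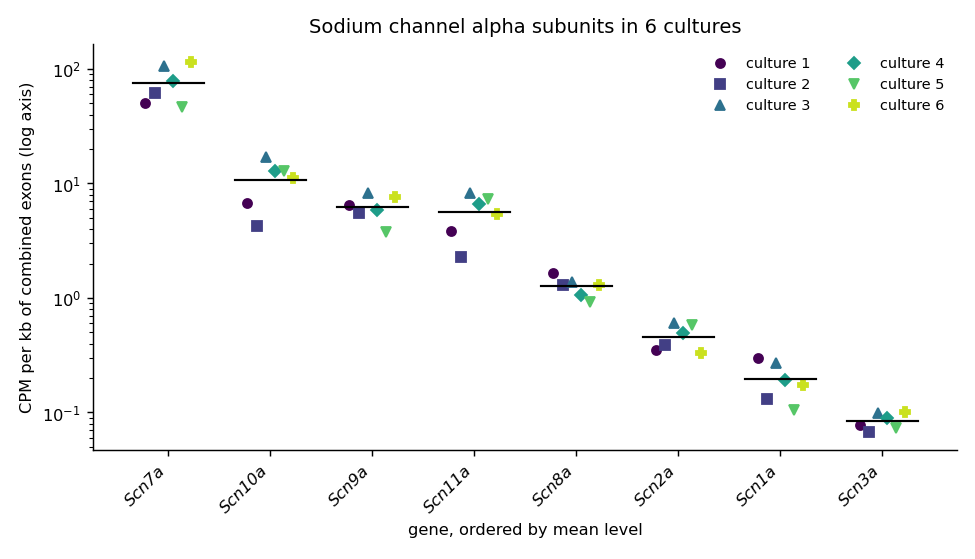
Level of each alpha subunit gene in CPM per kb of combined exons on a log axis, with 1 point per culture and a line at the mean of 6 cultures. Scn7a lies above all others in each culture, Scn10a, Scn9a and Scn11a overlap, and Scn3a has the lowest mean at 0.0849 CPM per kb.

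Scn10a encodes Nav1.8, which carries most of the tetrodotoxin-resistant current of nociceptors during the action potential. The gene lies on chromosome 9 at 119608456 to 119719322, minus strand (GRCm38.p6). Its level was 52.18, 32.72, 131.16, 99.50, 98.55 and 86.63 CPM in replicates 1 to 6. Replicates 1 and 2 were low and replicate 3 was high, a 4.01-fold range. Scn11a encodes Nav1.9, a channel with a slow, persistent current near the resting potential, and lies beside Scn10a on chromosome 9 at 119753763 to 119825456, minus strand. Its level was 22.64, 13.62, 49.44, 39.36, 43.76 and 31.84 CPM in the same replicates, with replicate 2 again lowest and replicate 3 highest, a 3.63-fold range.

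The tetrodotoxin-resistant pair had profiles that were alike. Scn10a exceeded Scn11a by 0.91 ± 0.11 on the log2(CPM per kb + 0.1) scale (SD, n = 6), the smallest SD of any of the 28 pairs, and the ratio stayed between 1.73 and 2.09. Across the 6 cultures Pearson's r of the log2(CPM + 0.5) profiles was 0.99 (exact permutation p = 0.00278) and Spearman's rho 0.94 (exact permutation p = 0.0167). Without replicates 2 and 1, the farthest from the median of Scn10a, r was 0.89. With p-values adjusted over all 14997 genes the relation had an adjusted p of 0.479, so it did not pass, and 0 genes passed for Scn10a (0% of those tested). In data simulated for the same test with a neuron score, 0 of 200 tracking genes among 14998 were recovered, and 3000 of 3000 when that many tracked it.

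The promoter sequences of this pair and of Scn7a are shown because the pair lies side by side with like profiles, while Scn7a had the highest level. They are the 250 bases before a transcript start listed in the RefSeq table for GRCm38.p6, 5′ to 3′ on the gene's strand. For Scn11a and Scn7a that start is the end of the gene as given here, but for Scn10a it lies inside the gene's bounds, so the window does too. Capitals in the Scn10a and Scn11a sequences mark the longest run of letters that their windows share, and capitals in Scn7a mark CAGCTG, an E-box.
Scn10a, chr9:119719033-119719282: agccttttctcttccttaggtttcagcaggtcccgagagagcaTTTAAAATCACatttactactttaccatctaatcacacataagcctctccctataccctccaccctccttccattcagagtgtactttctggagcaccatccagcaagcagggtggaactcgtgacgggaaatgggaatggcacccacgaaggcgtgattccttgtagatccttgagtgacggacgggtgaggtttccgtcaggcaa
Scn11a, chr9:119825457-119825706: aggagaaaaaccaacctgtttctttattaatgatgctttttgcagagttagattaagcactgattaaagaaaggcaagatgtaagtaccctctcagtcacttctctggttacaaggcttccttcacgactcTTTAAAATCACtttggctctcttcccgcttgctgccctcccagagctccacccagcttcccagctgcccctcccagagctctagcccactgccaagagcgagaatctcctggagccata
Scn7a, chr2:66784911-66785160: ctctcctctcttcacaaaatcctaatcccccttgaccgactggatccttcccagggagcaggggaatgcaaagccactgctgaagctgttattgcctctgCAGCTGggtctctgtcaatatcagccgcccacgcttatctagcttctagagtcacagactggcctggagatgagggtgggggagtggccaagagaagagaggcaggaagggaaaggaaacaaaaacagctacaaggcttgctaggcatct
The shared run TTTAAAATCAC is 11 letters long and begins 207 bases before that listed start of Scn10a and 119 bases before that of Scn11a. Searched on both strands, it was in 8 of 32851 promoter windows of 300 bases (0.0244%). That count includes the Scn10a and Scn11a windows, which hold the run by construction because it was picked from them. Whether so long a shared run is unusual for a pair of windows was not tested. CAGCTG, which is its own reverse complement, was in 16.3% of all windows and also in that of Scn11a. TATAAA, searched on both strands, was in 13.6% of windows and, of the 8 genes, in a window of Scn2a only. Of the 8 genes, 7 matched the table and Scn3a did not. These matches describe letters in a window and do not show binding of a factor.

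Across cultures, both genes had a higher r with a score of nociceptor genes than with one of neuron markers at large. The nociceptor score is the mean log2(CPM + 0.5) of 8 genes such as Calca, which encodes CGRP, Tac1, which encodes substance P, and the heat and irritant channels Trpv1 and Trpa1. It was lowest in replicate 2 at 3.97 and highest in replicate 3 at 5.01. Scn10a had r = 0.96 with this score (exact permutation p = 0.00139, the smallest possible, adjusted p = 0.508) and rho = 1.00 (exact permutation p = 0.00278). Without replicates 2 and 3 r was 0.90. Scn11a had r = 0.94 (exact permutation p = 0.00417, adjusted p = 0.627), rho = 0.94 (exact permutation p = 0.0167) and r = 0.85 without those replicates. With the neuron score, r was 0.40 for Scn10a (exact permutation p = 0.424) and 0.33 for Scn11a (exact permutation p = 0.522). None of the differences between these correlations was tested.

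Within the nociceptor list, 7 genes passed the filter on low counts and 6 of them had a positive r with Scn10a, with a median of 0.92 against 0.16 for all genes tested. Calca had r = 0.99 and Tac1 r = 0.96 with Scn10a over the 6 cultures. P2rx3, an ATP receptor, had r = 0.07, and Gfra2, the neurturin receptor of non-peptidergic nociceptors, had r = -0.66. Macrophage markers varied alongside: Scn10a had r = 0.80 and Scn11a r = 0.82 with the macrophage score (exact permutation p = 0.05 and p = 0.0375, adjusted p = 0.316 and p = 0.288). Only 4 of the 7 macrophage markers reached 1 CPM in every culture, and their part in the result was not tested.

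**Figure D2:**
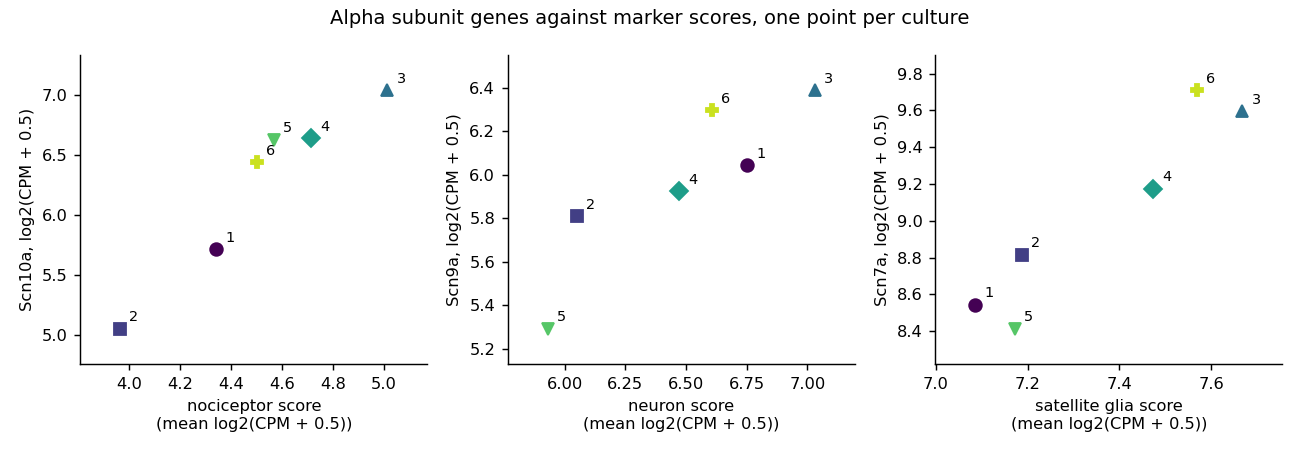
Level of a gene, as log2(CPM + 0.5), against a marker score in the same culture, with 1 point per culture labelled by replicate number. Scn10a is higher where the nociceptor score is (r = 0.96), Scn9a where the neuron score is (r = 0.89) and Scn7a where the satellite glia score is (r = 0.95).

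Scn9a encodes Nav1.7, which amplifies small depolarisations in sensory and sympathetic neurons. It lies on chromosome 2 at 66480080 to 66635114, minus strand, and was at 65.54, 55.67, 83.30, 60.30, 38.72 and 78.14 CPM in replicates 1 to 6. Replicate 3 was highest and replicate 5 lowest, a 2.15-fold range, so replicate 5 was low for Scn9a while it was the third highest for Scn10a and the second highest for Scn11a. Per kilobase, Scn10a over Scn9a was 1.05, 0.772, 2.07, 2.17, 3.35 and 1.46 in replicates 1 to 6. On this scale Scn9a was the higher in replicate 2 only; per kilobase of coding sequence the ratio was below 1 in replicate 1 too, at 0.807.

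Scn9a varied with the neuron score, the mean log2(CPM + 0.5) of 12 genes such as Tubb3, Prph and Snap25, which was lowest in replicate 5 at 5.93 and highest in replicate 3 at 7.03. Its r was 0.89 (exact permutation p = 0.0194, adjusted p = 0.369) and its rho 0.94 (exact permutation p = 0.0167), and r was 0.70 without replicates 5 and 3. All 12 neuron markers had a positive r with Scn9a, with a median of 0.88 against 0.03 for all genes. So did 6 of 6 glial lineage markers, with a median of 0.64, and 3 of 4 satellite glia markers, with a median of 0.65. A positive r was thus not particular to neuron markers. All 7 fibroblast markers had a negative r with Scn9a, with a median of -0.65, and endothelial markers had a median of -0.83. The part of these other markers in the result was not tested.

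Scn8a encodes Nav1.6, the main channel of nodes of Ranvier, and lies on chromosome 15 at 100869863 to 101045938, plus strand. It was at 22.60, 17.62, 18.83, 14.45, 12.48 and 17.75 CPM in replicates 1 to 6, a 1.81-fold range with replicate 1 highest and replicate 5 lowest. Scn8a was lower where the fibroblast score was higher: r was -0.98 (exact permutation p = 0.00694, adjusted p = 0.127) and rho -0.83 (exact permutation p = 0.0583), and r was -0.89 without replicates 5 and 1. Of all genes tested, 20.2% had an unadjusted p under 0.05 with that score, so such a relation was common. Nor was it particular to fibroblast markers. The median r with Scn8a was -0.94 for fibroblast, -0.79 for macrophage, -0.80 for endothelial and -0.78 for mural markers. It was 0.68 for neuron and 0.79 for glial lineage markers, but -0.16 for nociceptor and -0.02 for satellite glia markers. CPM is a share of the library, and the fibroblast markers' own sum was 3339 CPM in replicate 1 and 13977 CPM in replicate 5. The part of that change in the Scn8a values was not tested.

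Scn1a encodes Nav1.1, known from large myelinated afferents and from some mechanosensitive nociceptors. It lies on chromosome 2 at 66270781 to 66440837, minus strand, and was at 2.59, 1.14, 2.35, 1.67, 0.92 and 1.51 CPM in replicates 1 to 6. Replicates 1 and 3 were high and replicate 5 was low, a 2.82-fold range. Its r with the neuron score was 0.93 (exact permutation p = 0.0181, adjusted p = 0.369) and its rho 0.89 (exact permutation p = 0.0333), with r = 0.86 without replicates 5 and 3. Its values rest on 19.25 to 59.58 counts per culture, fewer than those of the genes above.

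Scn2a, which encodes Nav1.2, lies on chromosome 2 at 65620764 to 65767447, plus strand, and was at 3.20, 3.54, 5.55, 4.49, 5.28 and 3.06 CPM in replicates 1 to 6. Replicates 3 and 5 were highest, an order unlike that of the neuron score, with which r was -0.02. Its r was 0.89 with the macrophage score (exact permutation p = 0.0583, adjusted p = 0.334) and 0.71 with the fibroblast score (exact permutation p = 0.124, adjusted p = 0.358), and their part in its values was not tested. Scn3a encodes Nav1.3, a channel that has been reported to return to sensory neurons after nerve injury. It lies at 65457118 to 65567591 on the minus strand of the same chromosome and was at 1.57, 1.38, 2.02, 1.82, 1.48 and 2.05 CPM, from 30.2 to 43.8 counts per culture, with the narrowest range of the 8 genes at 1.49-fold.

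Scn1a, Scn2a, Scn3a, Scn9a and Scn7a lie in 1 cluster on chromosome 2. Of these, all but Scn7a share transcript sequence with another of the 8 genes, which bears on how reads can be assigned. Of all windows of 50 bases in the longest GENCODE coding transcript, 8.53% for Scn3a, 7.58% for Scn2a, 5.48% for Scn1a and 5.36% for Scn9a also occur in another of the 8 genes. The share was 0.0527% for Scn8a and 0% for Scn7a, Scn10a and Scn11a. Deposited counts were not whole numbers in 6 cultures for Scn1a, Scn2a and Scn9a, in 5 for Scn3a, in 3 for Scn10a and in 2 for Scn8a, and were whole in all cultures for Scn7a and Scn11a. Such values were common: 51.8% of the genes kept by the count filter had one in at least 1 culture. Levels of Scn1a, Scn2a, Scn3a and Scn9a are therefore uncertain to the extent that reads were divided. Opposite-strand long noncoding genes overlap 5 of the 8 genes, and the highest of them, Gm35265 in Scn9a, had at most 14 counts. The strand setting of the counting is not given in the sources used here, so reads from such a pair may not have been told apart.

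Gene length mattered for the lowest levels. The combined exon length of Scn3a was 20266 bases, against 9560 for its longest transcript and 5841 for its longest coding sequence. Scn1a exceeded Scn3a by 0.64 ± 0.33 (SD, n = 6) on the scale above, by 0.08 when levels were taken per kilobase of the longest transcript (exact permutation adjusted p = 0.656), and by -0.09 per kilobase of coding sequence (exact permutation adjusted p = 0.594). The order of Scn1a and Scn3a thus depended on the length used. Scn11a exceeded Scn8a by 1.96 ± 0.84, and by 1.00 per kilobase of coding sequence (exact permutation adjusted p = 0.101).

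Scn7a had the highest level of the 8 genes. It lies on chromosome 2 at 66673426 to 66784910, minus strand, and was at 372.77, 450.10, 772.95, 577.46, 340.65 and 836.38 CPM in replicates 1 to 6. Replicates 6 and 3 were high and replicates 5 and 1 low, a 2.46-fold range. Per kilobase it exceeded Scn10a, the next gene, by 3.65-fold in replicate 5 to 14.5-fold in replicate 2. It made up 72.4%, 81.6%, 74.6%, 74.3%, 64.5% and 81.3% of the summed level per kilobase of the 8 genes in replicates 1 to 6, or 74.8% ± 6.34 (SD, n = 6).

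Of the 6 marker scores, Scn7a had its highest r with that of satellite glia, which surround sensory neuron bodies. The score averages Fabp7, Kcnj10, Glul and Apoe, genes of which Apoe is also made by other cells. Its r with Scn7a was 0.95 (exact permutation p = 0.0153, adjusted p = 0.915), rho was 0.89 (exact permutation p = 0.0333), and r was 0.94 without replicates 3 and 1. With the broader glial lineage score r was 0.44 (exact permutation p = 0.403), and with the neuron score 0.61 (exact permutation p = 0.203). Kcnj10, a potassium channel of satellite glia, was at 293 ± 86.1 CPM (SD, n = 6) and had r = 0.96 with Scn7a. Apoe had r = 0.87, Fabp7 0.44 and Glul 0.17, a median of 0.66 over the 4 genes against 0.07 for all genes. The neuron list came close to that: its median r with Scn7a was 0.60, and all 12 neuron markers had a positive r. The higher r was thus not particular to satellite glia markers. These bulk values do not show which cells held the Scn7a transcript.

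Without Scn7a, Scn10a took 42.1% ± 7.76 of the summed level per kilobase of the remaining 7 genes, Scn9a 26.9% ± 8.84, Scn11a 22.2% ± 4.26 and Scn8a 5.72% ± 2.58 (SD, n = 6). The tetrodotoxin-resistant genes over the sum of Scn9a, Scn8a, Scn1a, Scn2a and Scn3a gave a ratio of 2.06 ± 1.01, from 0.886 in replicate 2 to 3.67 in replicate 5. Replicate 2 was below 1 under each length tried. Replicate 1 was at 1.19, but at 0.783 without length scaling and at 0.821 per kilobase of coding sequence.

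**Figure D3:**
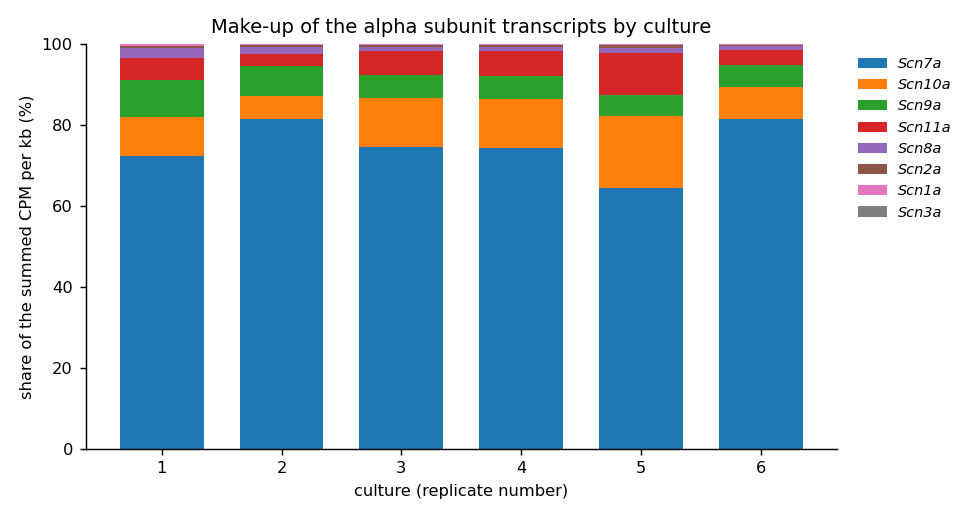
Share of each gene in the summed CPM per kb of the 8 alpha subunits, in percent, with 1 stacked bar per culture. Scn7a fills 64.5% of the bar in replicate 5 and 81.6% in replicate 2, and most of the rest is Scn10a, Scn9a and Scn11a.

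The spread between cultures exceeded counting noise for 7 of the 8 genes (chi-square test of the 6 counts, Benjamini-Hochberg over 14998 genes), against 76.3% of all genes tested, so this share is near the background. The gene that did not pass was Scn3a (adjusted p = 0.471). The relative spread of true levels, which edgeR gives as the biological coefficient of variation, was 0.384 for Scn10a, 0.368 for Scn11a, 0.315 for Scn7a and 0.232 for Scn9a. Genes of similar abundance had trend values of 0.150, 0.184, 0.173 and 0.155 in the same order. Scn1a, at 0.334 against 0.285, also exceeded its trend. Scn8a, at 0.209 against a trend of 0.217, did not, nor did Scn2a, at 0.243 against 0.291, or Scn3a, at 0.177 against 0.285.

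The SD over cultures of log2(CPM + 0.5) was also taken after subtracting a marker score. It can fall only for a gene with a positive r with the score and a spread that is not small beside that of the score. It therefore does not measure sharing alone. With the neuron score, whose SD was 0.419, it fell from 0.437 to 0.166 for Scn1a, from 0.393 to 0.194 for Scn9a and from 0.541 to 0.437 for Scn7a. The SD also fell from 0.731 to 0.681 for Scn10a and from 0.684 to 0.673 for Scn11a. For Scn3a, which varied little, it rose from 0.187 to 0.306 although r with the score was 0.75. It was smaller for 5 of the 8 genes and for 7.25% of all genes, but the median SD of all genes was 0.165, too small for most to shrink, so these shares are not comparable. With the nociceptor score, whose SD was 0.353, it was smaller for 4 of the 8 and, with the same limit, 11.8% of all genes, and came to 0.405 for Scn10a and 0.370 for Scn11a.

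**Figure D4:**
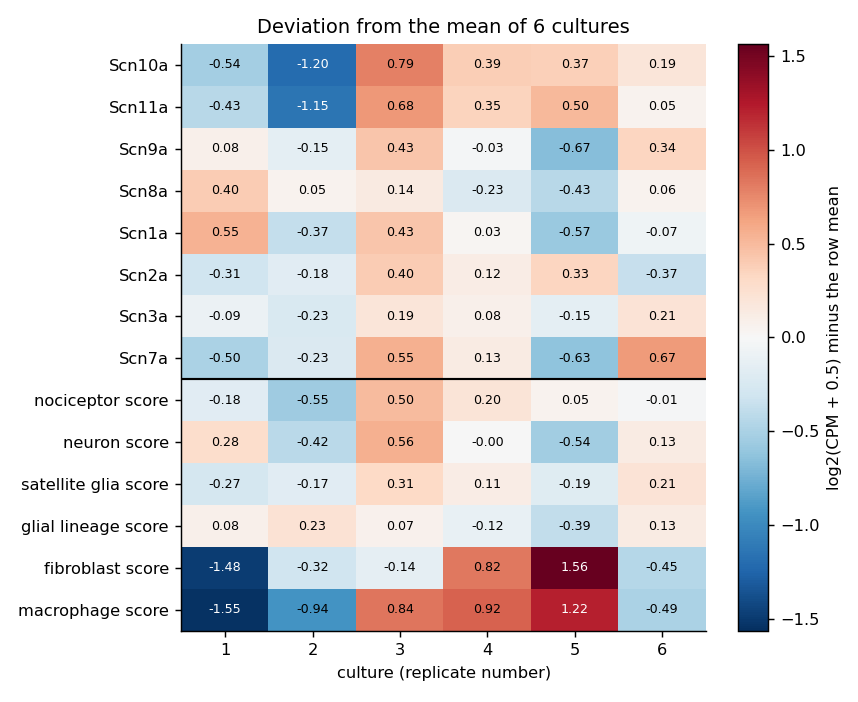
Deviation of log2(CPM + 0.5) from the mean of 6 cultures, with 1 row per alpha subunit gene above the line and 1 row per marker score below it, and 1 column per culture. Scn10a and Scn11a are low in replicates 1 and 2 like the nociceptor score, whereas Scn1a and Scn9a are lowest in replicate 5 like the neuron score. Scn7a, Scn8a and the glial lineage score are lowest in replicate 5 too.

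With p-values adjusted over all genes, 0 of the 8 genes passed for any of the 6 marker scores by Pearson's r or Spearman's rho (exact permutation), and 0% of all genes passed. The smallest exact permutation p of r is 0.00139, so a gene can pass only if many others do at once. Not passing is therefore no sign that a gene was unrelated to a score. At an unadjusted p under 0.05 by Pearson's r, 2 of the 8 passed for the neuron score, 2 for the nociceptor score, 2 for the satellite glia score (Scn7a and Scn3a), 1 each for the fibroblast and macrophage scores and 0 for the glial lineage score. The share of all genes below that p was 10.5% for the neuron, 5.84% for the nociceptor, 5.20% for the satellite glia, 20.2% for the fibroblast, 15.5% for the macrophage and 16.4% for the glial lineage score.

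Genes with the most similar profile, at most 3, were named for each alpha subunit that reached 1 CPM in all cultures, by Pearson's r over 6 cultures among 11928 genes with a mean of at least 5 CPM. For Scn10a they were Acad11, Masp1 and Trpv2, a cation channel of sensory neurons, with r = 0.99 to 1.00. For Scn11a they were Basp1, a growth cone protein, Trarg1 and Grik1, a kainate receptor subunit, with r = 0.99. Genes close to Scn9a were Stmn1, which binds tubulin, and Bicd1, a dynein adaptor. Scn7a was closest to Klf9, a transcription factor, Srcin1 and Zfp72. Scn8a was closest to Ikbkb, Epb41l4a and Lpin1, Scn2a to Prdm15, Tbl1x and Cenpt, and Scn3a to Fads3, Cetn2 and Gfra3, the artemin receptor. With 6 cultures such values are a description: they are the highest of 11928.

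Scn4a, the alpha subunit of skeletal muscle, had at most 2 counts in any culture.

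Partners of the channel were largely present. Of 17 accessory genes, including Scn4a, 15 reached 1 CPM in every culture, against 30.4% of all genes. The same number passed the count filter, against 32.8% of all genes, and varied beyond counting noise, against 76.3% of the genes tested. Of the beta subunits, which modulate gating and adhesion, Scn3b was at 19.9 ± 5.06 CPM, Scn4b at 6.45 ± 2.94 CPM and Scn2b at 2.52 ± 0.807 CPM (SD, n = 6). Per kilobase these were 4.69 ± 1.19, 1.36 ± 0.617 and 0.535 ± 0.172 CPM per kb. Partner relations given here were picked from all pairs of a partner and a subunit. Scn4b varied with Scn9a, with r = 0.98 (exact permutation p = 0.00139, adjusted p = 0.320) and rho = 1.00 (exact permutation p = 0.00278). Without replicates 5 and 3 r was 0.99. Other partners had a high r with Scn9a too: Nfasc 0.94, Scn3b 0.93, Cntn1 0.93 and Sptbn4 0.92. Among 11928 genes with a mean of at least 5 CPM, 358 had r over 0.9 with Scn9a, so such a value was not particular to Scn4b. Scn2b had r = 0.88 with Scn10a (exact permutation p = 0.0208, adjusted p = 0.615), and r was 0.50 without replicates 2 and 1, so that relation rests on those cultures.

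The fibroblast growth factor homologous factors bind the channel's tail and shift its inactivation. Fgf13 was at 54.6 ± 15.1 CPM, Fgf11 at 27.8 ± 4.22 CPM and Fgf12 at 10.6 ± 3.05 CPM (SD, n = 6), while Fgf14 had 1 to 4 counts. Fgf13 varied with Scn10a, with r = 0.95 (exact permutation p = 0.00139, adjusted p = 0.479), rho = 1.00 (exact permutation p = 0.00278) and r = 0.99 without replicates 2 and 1. Among the 11928 genes, 220 had r over 0.9 with Scn10a, so such a value was not particular to Fgf13. All 5 anchoring genes were detected: Ank3, which encodes ankyrin-G and tethers channels at the axon initial segment, was at 460 ± 71.6 CPM and the adhesion gene Nrcam at 311 ± 42.9 CPM. Nfasc was at 14.6 ± 5.23 CPM, Cntn1 at 27.2 ± 10.3 CPM and Sptbn4, the axonal spectrin, at 3.67 ± 1.29 CPM. Of the genes for trafficking and turnover, S100a10, which carries Nav1.8 to the membrane, was at 240 ± 32.1 CPM, the ubiquitin ligase Nedd4l at 152 ± 28.6 CPM, Pdzd2 at 218 ± 60.1 CPM and Dpysl2 at 102 ± 11.0 CPM. Several of these partners are also made by glia or fibroblasts, and their source cells were not resolved.

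**Figure D5:**
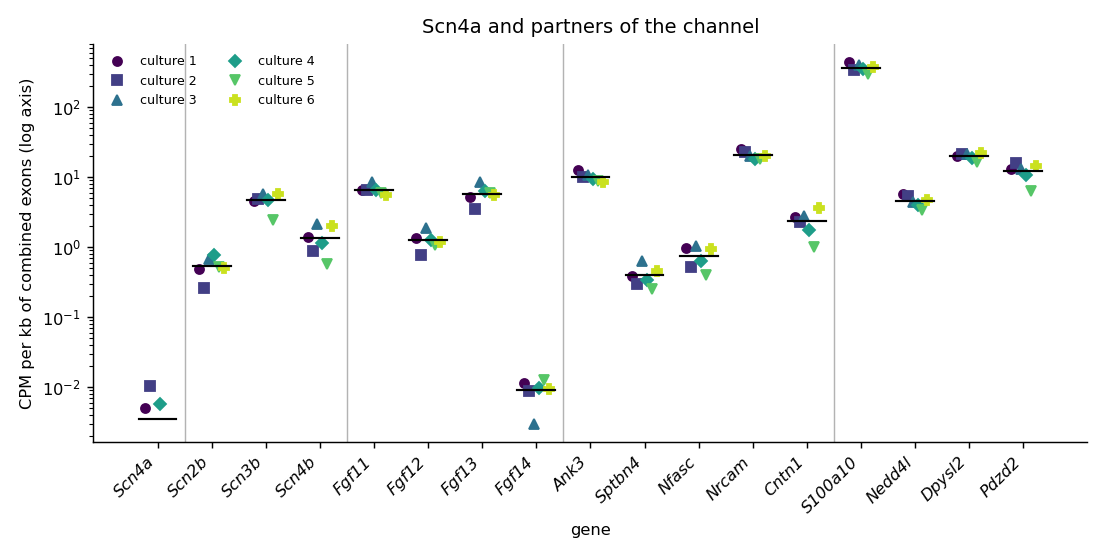
Level of Scn4a and of the partner genes in CPM per kb of combined exons on a log axis, with 1 point per culture and a line at the mean; cultures with 0 counts of Scn4a have no point. Scn4a and Fgf14 lie lowest, and S100a10 lies highest with a mean of 369 CPM per kb.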

How the data were processed

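Poly-A RNA from 6 cultures was sequenced from stranded libraries. Per the submitters' processing notes, bcl2fastq 2.20.0.422, cutadapt 2.5, STAR 2.7.2b and featureCounts 1.6.4 (Subread) were used with GRCm38.p6; their settings, including strand and multi-matching reads, are not given in the sources used here. The authors deposited estimated counts per gene without scaling; 13.4% to 14.7% of values per library were not whole. Those counts were divided by library totals (CPM) and by the deposited combined exon length (CPM per kb), and rounded for edgeR 4.0.16, DESeq2 1.42.0 and the chi-square test (R 4.3.3; Python 3.11.15, scipy 1.17.1). Genes were kept with filterByExpr (14998). Pseudocounts were 0.1 per kb and 0.5 CPM. Marker relations used exact permutation over 720 pairings for every gene, with Benjamini-Hochberg adjustment.

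The genes described and all lists were chosen with earlier results of these data known. Named genes were the 8 alpha subunits, the partner and marker lists, and the 3 genes most alike in profile, with a mean of at least 5 CPM, for each subunit at 1 CPM or more in every culture. The nociceptor and satellite glia scores, profiles against single subunits, and GENCODE lengths (pairs, shares and ratios) were added after the data were seen. All 45703 gene IDs matched RefSeq. Tested on simulated data for 14998 genes, the chi-square test called 186 of the 200 that had been changed and 4 others. The relation test recovered 0 of 200 genes tracking the neuron score, and 3000 of 3000 with 112 other calls when that many tracked it. Totals of 20070639 to 22968642 counts put little counting error on the common subunits and more on Scn1a and Scn3a. A few listed items are not reported here.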

Additional observations from a re-analysis of the deposited data

Results flagged for a closer look

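In the summed level per kilobase of the 8 alpha subunits, the share of Scn1a was 0.424% in replicate 1, far above the other 5 cultures for the size of their range. Of 22 measures examined for a single outlying culture, this was the only 1 that met Dixon's criterion, and 1.1 were expected by chance.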

How the results depend on the processing

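No paired analysis was possible because all 6 samples form a single group, so there are no groups whose replicate numbers could be matched. Of the values that answer a comparison, 122 recomputed under an alternative stayed as reported and 1 moved. With a neuron score made from the list's median, the SD shrank for 3 genes in place of 5, without Scn10a and Scn11a. A count was taken to stay within a fixed fold range, so a fall from 5 to 4 genes is among the 122. Many of the 122 are counts of genes passing for a marker score. None passed in any setting, which 6 cultures nearly fixed in advance, so these counts do not measure stability. Of other values, 721 stayed, 46 moved, 2 lost significance and 1 turned. The last was Scn1a minus Scn3a, at -0.0898 on the log2 scale per kilobase of coding sequence. It turned because the combined exons of Scn3a are longer than its coding sequence by more than those of Scn1a. A mean level or share was taken to stay if it shifted by less than its SD over cultures. Leaving out 1 of 6 cultures cannot shift a mean that far, so such values were bound to stay. The 721 are therefore no measure of stability. Of the 28 pairs, 26 passed with a pseudocount of 1 or 0.01 per kb, 25 with transcript length and 24 with coding length. Leaving out 1 culture allows no exact p below 0.0625; the pairs with 1 direction then numbered 26 to 27. Without replicate 2 or replicate 3, the SD shrank for 4 genes, with Scn8a in and Scn10a and Scn11a out. The same 7 genes varied beyond counting noise in every alternative, while calls over all genes were 13482 of 26854 without a low-count filter against 11449 of 14998, and 10097 to 11260 with 1 culture left out. A coding length taken from RefSeq proteins, planned as an alternative, was not run. With 6 cultures, every relation is limited to a smallest p of 0.00139.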

Other observations

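Scn1a and Scn8a are known from large myelinated afferents, and markers of those neurons were partly present. Nefh, the heavy neurofilament, was at 35.4 ± 11.9 CPM, Ntrk3, the neurotrophin-3 receptor, at 15.6 ± 4.22 CPM and Etv1 at 15.7 ± 2.30 CPM (SD, n = 6). Ntrk2, which glia also make, was at 254 ± 46.9 CPM. In replicate 5, which had the lowest neuron sum, Nefh was lowest at 21.6 CPM, but Etv1 was highest at 18.7 CPM and Ntrk3 was at 17.4 CPM. Which cells held these transcripts was not resolved. Pvalb, a marker of proprioceptors, had 0 to 3 counts per culture, and Runx3, a transcription factor of proprioceptors, 3 to 12 counts. Among nociceptor markers, Mrgprd, a receptor of non-peptidergic neurons, was at 0.521 ± 0.410 CPM with 3 to 25 counts per culture.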
